A study of Mus musculus with 52 samples.

Results

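The 36 genes described here encode the enzymes that make cholesterol and fatty acids in the mouse and 2 proteins that carry sterols within the cell. They were chosen as a list of gene symbols, with no measured value in the rule. All 36 were found among the 46071 genes of the count table, 20 of them sterol genes and 16 fatty acid genes. Each of the 36 passed the filter on low counts in every brain region. RNA was sequenced from the hypothalamus, the nucleus accumbens and the hippocampus of male C57BL/6J mice, an inbred laboratory strain, aged 3 months. The labels name no transgene or mutation, and every group had spent 3 h in a clamp, a procedure in which infused glucose keeps blood glucose steady while insulin runs in. The mice received saline, insulin at 4 mU/kg/min (low rate) or insulin at 12 mU/kg/min (high rate). Of the 52 libraries, the hypothalamus gave 5 under saline, 6 at the low rate and 5 at the high rate, and both other regions gave 6 in every group.

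Cholesterol is built from acetyl-CoA through mevalonate, squalene and lanosterol, and lanosterol is then trimmed and rearranged step by step. The brain makes its own cholesterol, because little crosses the blood-brain barrier, and oligodendrocytes and astrocytes are known as major producers. Fatty acids are built from malonyl-CoA, lengthened by elongases and given double bonds by desaturases. Many genes of both routes are known targets of SREBP transcription factors, which leave the endoplasmic reticulum when sterol is scarce and whose activity insulin raises in liver.

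The promoter windows of 4 sterol genes are shown. Hsd17b7 and Sc5d were called under insulin at the low rate in the hypothalamus, Hmgcs1 holds the one match to the full sterol regulatory element, and Msmo1, which was not called, is an enzyme of the same steps as Hsd17b7 and Sc5d. Each window runs from 250 bases before to 50 bases after the annotated start in RefSeq on build GRCm38.p6, and is written 5′ to 3′ on the strand of the gene. Capitals mark matches to TCACNCCAC, the core of the sterol regulatory element bound by SREBP, and to CCAAT, a box bound by NF-Y, both searched on either strand, so that CCAAT on the other strand reads ATTGG.
Hmgcs1 (chr13:119690101-119690400, plus strand): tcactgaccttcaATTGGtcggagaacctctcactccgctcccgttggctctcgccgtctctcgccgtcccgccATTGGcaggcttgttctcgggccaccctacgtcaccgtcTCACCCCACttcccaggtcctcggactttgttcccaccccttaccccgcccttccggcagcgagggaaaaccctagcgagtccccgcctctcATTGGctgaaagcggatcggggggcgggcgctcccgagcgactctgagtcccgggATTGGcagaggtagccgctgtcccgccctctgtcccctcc
Hsd17b7 (chr1:169969156-169969455, minus strand): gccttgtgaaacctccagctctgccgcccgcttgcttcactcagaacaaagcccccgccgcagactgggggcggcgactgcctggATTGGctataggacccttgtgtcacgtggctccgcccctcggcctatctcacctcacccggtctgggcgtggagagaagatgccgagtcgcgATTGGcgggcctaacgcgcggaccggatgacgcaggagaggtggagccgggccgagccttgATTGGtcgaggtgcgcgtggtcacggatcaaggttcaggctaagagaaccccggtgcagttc
Sc5d (chr9:42264251-42264550, minus strand): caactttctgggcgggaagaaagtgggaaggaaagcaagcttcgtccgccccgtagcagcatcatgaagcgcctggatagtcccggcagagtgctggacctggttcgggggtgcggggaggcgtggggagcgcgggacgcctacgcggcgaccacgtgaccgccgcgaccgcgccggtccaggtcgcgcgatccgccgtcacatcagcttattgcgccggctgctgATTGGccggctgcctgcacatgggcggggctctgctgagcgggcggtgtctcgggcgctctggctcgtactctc
Msmo1 (chr8:64733529-64733828, minus strand): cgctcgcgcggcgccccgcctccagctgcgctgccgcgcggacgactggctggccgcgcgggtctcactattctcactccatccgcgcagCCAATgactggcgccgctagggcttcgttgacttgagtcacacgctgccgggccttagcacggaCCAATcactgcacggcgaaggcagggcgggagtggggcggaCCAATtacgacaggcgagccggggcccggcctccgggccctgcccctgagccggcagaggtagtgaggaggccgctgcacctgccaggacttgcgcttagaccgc
The Hmgcs1 window held 1 match to TCACNCCAC, read as TCACCCCAC, and 4 CCAAT matches. Hsd17b7 and Msmo1 held 3 CCAAT matches each and Sc5d held 1. The RefSeq table had 34 windows for 28 of the 36 genes, 5 of which had more than 1. The 8 genes without a window were Fads1, Fdft1, Fdps, Npc1, Scd1, Scd2, Sqle and Stard4.

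A gene was counted once if any of its windows held the motif. Of the 28 genes, 1 (3.57%) held TCACNCCAC, against 1.44% of all 27025 genes in the table. CCAAT was found in 23 genes (82.1%), against 41.1% of all genes and 42.5% of the 10701 with a window that were expressed enough to be tested. GGGCGG, a GC box, was found in 22 genes (78.6%), against 38.2% of all genes and 68.5% of tested genes. CACGTG, an E-box, was found in 5 genes (17.9%), Dhcr7, Elovl4, Elovl5, Hsd17b7 and Sc5d, against 8.09% of all genes and 11.6% of tested genes. Each motif was counted on its own, on both strands, so that overlapping matches of different motifs each count. A match describes the letters of the window and is neither a bound site nor a cause of any change below.

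Total counts per library ranged from 2453412 to 8279612. The labels do not say which libraries come from separate animals, so p-values reflect the scatter among libraries, part of which may be technical. The summed level of 5 hypothalamic peptide genes reached 44.3 to 1620 CPM (normalised counts, scaled to library size) in the hypothalamus, 0.582 to 43.7 CPM in the nucleus accumbens and 0.24 to 3.01 CPM in the hippocampus. Within the hypothalamus, low replicates 1, 2 and 6 and high replicates 3 and 5 had at least 1 of those 5 peptides under 1 CPM, and 0 of 5 saline libraries did. Some libraries held relatively more counts from GC-rich transcripts. This lean was measured as the Spearman correlation, across genes, between a library's deviation from its regional mean and transcript GC content. It exceeded 0.4 in 3 of 5 saline libraries of the hypothalamus (replicates 1, 2 and 5, 0.416 to 0.7) and in 0 of its 11 insulin libraries. The hippocampus had 1 such library at saline, 2 at the low rate and 1 at the high rate, and the nucleus accumbens had 1 in each group. For insulin against saline in the hypothalamus, and for hypothalamus against hippocampus, counts, medians and leading values are also given without the leaning libraries. The other region comparisons and the low rate in the hippocampus are given so only in part.

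Levels per gene length under saline spanned a wide range in every region. Scd2, the main stearoyl-CoA desaturase of brain, which turns saturated into monounsaturated fatty acids, was the most abundant member in each region. Its mean level was 361.7 CPM per kb of exon in the hypothalamus, 350.6 CPM per kb in the nucleus accumbens and 230.3 CPM per kb in the hippocampus. These values made up 39.0%, 41.1% and 35.4% of the summed level of all 36 genes in the same 3 regions. Scd1, its close paralog, followed in the hypothalamus with 73.9 CPM per kb. Reads of Scd1 and Scd2 can be split or lost between the pair, so their exact ratio is uncertain.

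Acly, Fads1 and Hmgcs1 were also among the most abundant members. Acly, which makes cytosolic acetyl-CoA from citrate, stood at 55.1 CPM per kb in the hypothalamus, 68 CPM per kb in the nucleus accumbens and 37.6 CPM per kb in the hippocampus. Fads1, the delta-5 desaturase of polyunsaturated fatty acids, was nearly level across the regions, at 49.1, 44.5 and 45.9 CPM per kb in the same order. Hmgcs1, which makes HMG-CoA for the mevalonate route, stood at 42.3, 37.9 and 33.4 CPM per kb. The lowest members were Acacb, the mitochondrial acetyl-CoA carboxylase, Fdps, which makes farnesyl diphosphate, and Idi1, which isomerises isopentenyl diphosphate. Idi1 had 0.995 CPM per kb in the hypothalamus and 820 counts over all 52 libraries, and Fdps had 1.49 CPM per kb and 1140 counts. Near-identical copies of these genes can take or lose reads, so both low levels are uncertain. Fdps exons also share 1124 bases with those of Gm43738, a protein-coding gene on the same strand. Gm43738 holds 1 count, and reads in the shared bases may be missing from both genes.

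**Figure D1:**
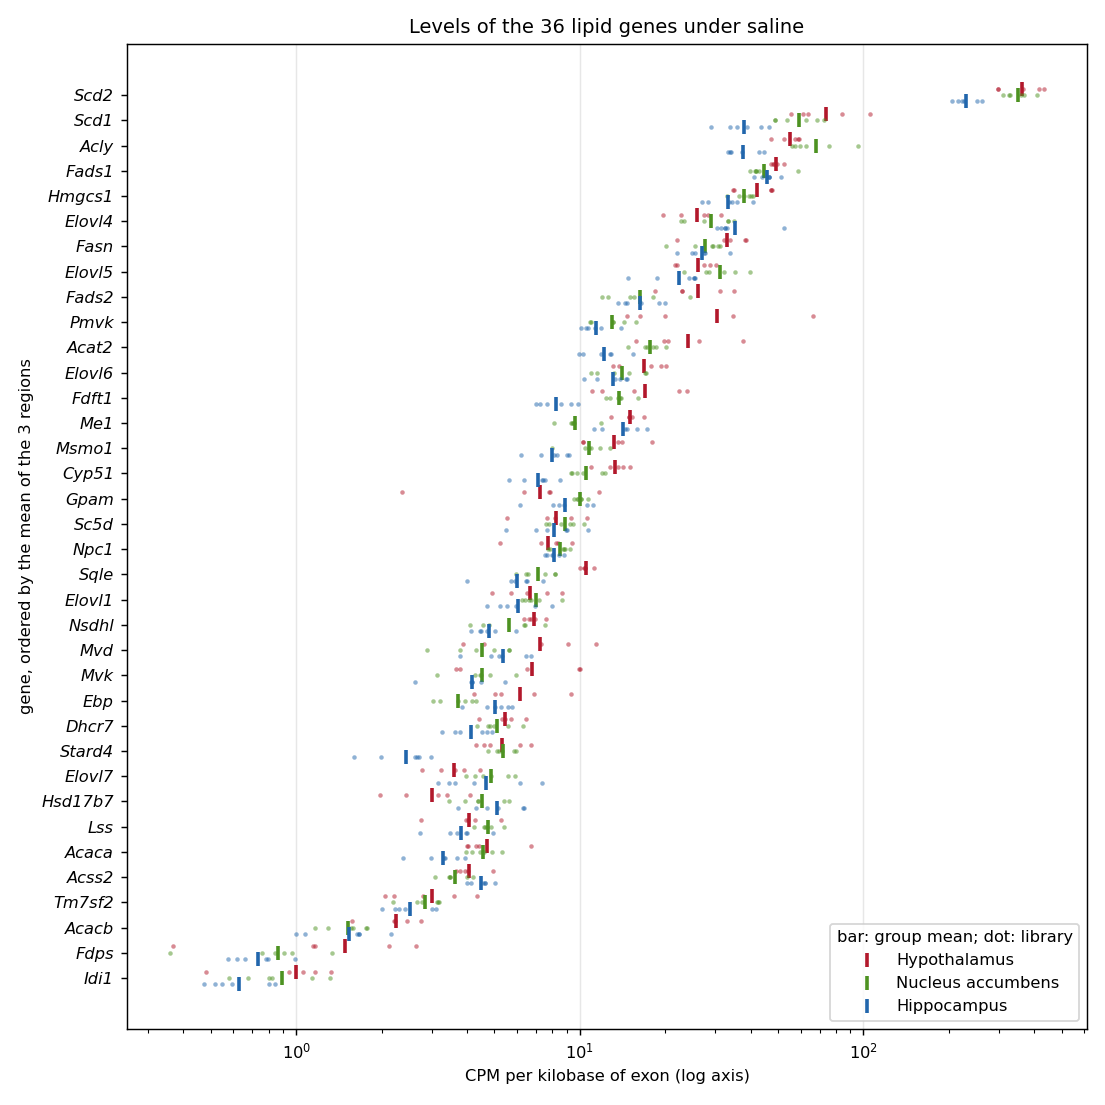
Level of each of the 36 genes under saline, in CPM per kilobase of exon on a log axis, with 1 dot per library and a bar at the mean of each region (5 hypothalamic libraries, 6 from both other regions). Scd2 lies apart at the top, at 361.7 CPM per kb in the hypothalamus, and Idi1 lies at the bottom.

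The regions were compared under saline in 1 edgeR fit of all 52 libraries. Genes of several sterol steps were among those higher in the hypothalamus than in the hippocampus, from Pmvk at the mevalonate steps to Cyp51 and Msmo1 after lanosterol. Of the 36 genes, 17 were higher and 2 lower in the hypothalamus at an adjusted p under 0.05, which makes 19 called where 46% of all 14985 tested genes were called. Higher calls alone took 24.4% of all genes. The groups did not overlap, with every hypothalamic library above every hippocampal one, for 12 of the 36 genes, against 12% of all genes. The median log2 difference of the 36 genes was 0.42, beside 0.06 for all genes tested, and 30 of 36 lay above 0, beside 53.1% of all genes. With the GC-leaning libraries left out, 14 genes were called, where 31.8% of all genes were, and the median was 0.33, beside -0.003. By route, 11 of the 20 sterol genes were higher and 1 lower, and 6 of the 16 fatty acid genes were higher and 1 lower.

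Stard4, a cytosolic carrier that moves cholesterol between membranes, showed the difference in every library. It had 26.9, 25.7, 34.5, 37.7 and 24.0 CPM in the 5 hypothalamic saline libraries, against a lowest value of 8.90, a median of 14.7 and a highest of 16.8 CPM in the 6 hippocampal ones. The groups did not overlap, and the log2 difference was 1.12 (SE 0.16, edgeR adjusted p = 6.28e-08). Without the GC-leaning libraries it was 1.31.

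Pmvk, which phosphorylates phosphomevalonate, had the largest log2 difference of the 36, 1.41 (SE 0.30, edgeR adjusted p = 9.91e-05). Its hypothalamic saline libraries had 34.3, 59.3, 25.1, 28.0 and 114 CPM, against 17.4, 18.8 and 24.0 CPM as the lowest, median and highest of the hippocampus. All 5 lay above the hippocampal values, but replicates 2 and 5, both GC-leaning, were the highest. Without the GC-leaning libraries the log2 difference was 0.50 (edgeR adjusted p = 0.108), and Pmvk was no longer called.

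Fdft1, squalene synthase, had 65.9, 94.7, 46.7, 50.5 and 101 CPM in the hypothalamus, against 29.6, 34.2 and 41.6 CPM as the lowest, median and highest of the hippocampus. The groups were apart, with a log2 difference of 1.03 (SE 0.20, edgeR adjusted p = 2.8e-05) that fell to 0.48 (edgeR adjusted p = 0.0561) without the GC-leaning libraries. Fdft1 exons overlap those of Ctsb, a lysosomal protease gene, on the opposite strand by 774 bases. Ctsb holds 108490 counts and Fdft1 14326, and whether the counting used strand is not given in the sources used here.

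Acat2, the cytosolic thiolase that opens the sterol route, had 40.3, 66.7, 52.1, 50.5 and 95.5 CPM in the hypothalamus, against 25.3, 31.4 and 39.1 CPM as the lowest, median and highest of the hippocampus. The groups did not overlap, and the log2 difference was 0.97 (SE 0.16, edgeR adjusted p = 2.31e-06). It was 0.68 without the GC-leaning libraries and was still called.

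Among the other 13 genes called higher, Scd1 (log2 difference 0.96), Cyp51, which removes a methyl group from lanosterol (0.89), Sqle, squalene epoxidase (0.80), Msmo1, a later sterol demethylase (0.72), Scd2 (0.65), Acly (0.55), Acaca, the cytosolic acetyl-CoA carboxylase (0.51), and Nsdhl (0.50) also had groups that did not overlap. Hsd17b7, a ketoreductase of the late sterol steps, ran the other way. It had 10.1, 16.2, 17.3, 21.0 and 12.4 CPM in the hypothalamus, against 19.0, 25.1 and 32.5 CPM as the lowest, median and highest of the hippocampus. Its log2 difference was -0.78 (SE 0.19, edgeR adjusted p = 0.000794), with 4 of 5 hypothalamic libraries below every hippocampal one. Elovl4, the elongase of very long fatty acids, had a log2 difference of -0.46. Without the GC-leaning libraries neither was called, at -0.54 for Hsd17b7 (edgeR adjusted p = 0.087) and -0.28 for Elovl4 (edgeR adjusted p = 0.336).

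Stard4, Acly, Fdft1 and both stearoyl-CoA desaturases were among the genes higher in the nucleus accumbens than in the hippocampus. Under saline, 10 of 36 were higher and 2 lower in the nucleus accumbens, so 12 were called where 29.2% of all genes were. Of these, 7 had groups that did not overlap, all higher in the nucleus accumbens, against 7.88% of all genes. The median log2 difference was 0.18, beside 0.002 over all genes. In the fit that left out the GC-leaning libraries 13 genes were called, where 29.6% of all genes were, and the median was again 0.18.

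Stard4 had the largest log2 difference of the called genes, with a lowest, median and highest value of 26.5, 29.3 and 33.3 CPM in the nucleus accumbens and 8.90, 14.7 and 16.8 CPM in the hippocampus. Its log2 difference was 1.13 (SE 0.15, edgeR adjusted p = 3.57e-08). Acly had 295, 324 and 507 CPM in the nucleus accumbens, against 175, 189 and 235 CPM in the hippocampus, a log2 difference of 0.84 (SE 0.14, edgeR adjusted p = 3.11e-06). The groups were apart for both genes. Fdft1 (0.72) and Scd1 (0.63) were also higher with groups apart, as were Scd2, Cyp51 and Acaca. Me1, malic enzyme, which supplies NADPH, had 31.1, 36.2 and 45.9 CPM in the nucleus accumbens, against 43.1, 56.0 and 66.1 CPM in the hippocampus, a log2 difference of -0.58 (SE 0.14, edgeR adjusted p = 0.000805). Acss2, which makes acetyl-CoA from acetate, had a log2 difference of -0.33.

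Between the nucleus accumbens and the hypothalamus, 1 of the 36 genes was higher and 10 were lower in the nucleus accumbens, so 11 were called where 32.1% of all genes were. The gene that was higher was Hsd17b7 (log2 difference 0.59, SE 0.19, edgeR adjusted p = 0.0163). The largest log2 differences among called genes with a mean of at least 5 CPM were those of Pmvk (-1.23), Ebp, a sterol isomerase (-0.73), Mvd, which makes isopentenyl diphosphate (-0.70), and Fads2, the delta-6 desaturase (-0.69). Sqle and Me1 were the 2 members whose groups did not overlap, against 6.49% of all genes that were lower in this way. Sqle had 33.0, 39.1 and 45.3 CPM as the lowest, median and highest of the nucleus accumbens, against 57.3, 57.7, 62.5, 57.9 and 55.8 CPM in the hypothalamus.

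The number of calls between nucleus accumbens and hypothalamus moved with the libraries used. Without the GC-leaning libraries of both regions, 4 genes were called, where 10.0% of all genes were. Sqle (-0.59), Me1 (-0.65) and Fads2 (-0.66) were among the 11 above and Scd1 (-0.64) was not, while Pmvk (-0.28), Ebp (-0.26) and Mvd (0.14) were no longer called. With the 3 infusions of each region averaged, 22 genes were called, where 41.9% of all genes were, Sqle again among them (-0.65). Leaving out 1 library at a time gave between 6 and 13 called genes. There were 6 without saline replicate 2 of the nucleus accumbens and 7 without hypothalamic saline replicate 1, 2 or 5. The shares of all genes called in these fits are not given, so these counts cannot be set against the background. Pmvk stood at -0.73 without hypothalamic saline replicate 5 (edgeR adjusted p = 0.045).

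Cell-type markers also differed between the regions under saline. Of 12 oligodendrocyte markers, 1 was higher in the hypothalamus than in the hippocampus, 5 were higher in the nucleus accumbens than in the hippocampus, and 0 were called between nucleus accumbens and hypothalamus. Over all genes, 24.4% were called higher in the first of these comparisons and 14.7% in the second, and 32.1% were called in the third. Their summed level was 4610 to 8570 CPM in the hypothalamus, 4600 to 7130 CPM in the nucleus accumbens and 2960 to 5230 CPM in the hippocampus. Of 10 astrocyte markers, 6 were higher and 2 lower in the hypothalamus than in the hippocampus. Their summed level ran the other way, at 4140 to 5060 CPM in the hypothalamus and 4690 to 7380 CPM in the hippocampus. None of the markers of either list was at 0 in any of these groups. Their part in the regional differences was not tested, and in bulk tissue fewer cells of a type and less RNA per cell cannot be told apart.

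Between the low rate and saline, 3 of the 36 genes were called in the hypothalamus, and all 3 were higher at the low rate. They were Stard4 and 2 enzymes that act after lanosterol, Hsd17b7 and Sc5d. Over all 14139 genes tested, 5.38% were called, and 3.59% were called higher. The 3 of 36 genes thus stand close to the background share. Without adjustment, 15 of the 36 had a p under 0.05 and were higher and 2 were lower, where 14.4% of all genes were higher and 15.5% lower in this way. The median log2 change of the 36 was 0.24, beside -0.02 for all genes, and 23 lay above 0, beside 47.9% of all genes.

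Stard4 (ENSMUSG00000024378) had 39.0 CPM as its lowest, 48.3 CPM as its median and 55.9 CPM as its highest value at the low rate, against 26.9, 25.7, 34.5, 37.7 and 24.0 CPM under saline. All 6 low-rate libraries lay above all 5 saline libraries, as did 1.49% of all genes. The means were 47.2 ± 5.75 CPM (SD, n = 6) at the low rate and 29.8 ± 5.96 CPM (SD, n = 5) under saline. The log2 change was 0.69 (SE 0.14, edgeR adjusted p = 0.0138). Without saline replicate 1 or 2 the adjusted p was 0.051 or 0.061 in edgeR, and Stard4 was called in the other 9 of 11 fits that left out 1 library.

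Hsd17b7 (ENSMUSG00000026675), whose promoter window holds 3 CCAAT matches and an E-box, had 20.7, 23.1 and 46.9 CPM as its lowest, median and highest value at the low rate, against 10.1, 16.2, 17.3, 21.0 and 12.4 CPM under saline. The groups overlapped in 1 library, with 5 of 6 low-rate libraries above every saline library, and low replicate 2 stood far above the rest. The log2 change was 0.85 (SE 0.22, edgeR adjusted p = 0.0373). It was 0.61 without low replicate 2 (edgeR adjusted p = 0.0796), and the gene was called in 5 of 11 fits that left out 1 library. Those that lost it were without saline replicate 1, 2 or 5 or low replicate 2, 3 or 6.

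Sc5d (ENSMUSG00000032018), lathosterol oxidase, which places the double bond of the sterol ring late in the route, had 50.8, 56.1 and 72.3 CPM at the low rate, against 39.7, 37.3, 51.6, 45.4 and 26.9 CPM under saline. The groups overlapped in 1 library, with 5 of 6 low-rate libraries above every saline library. The log2 change was 0.59 (SE 0.16, edgeR adjusted p = 0.0455). It was called in 3 of 11 fits that left out 1 library, those without low replicate 1 or saline replicate 3 or 4.

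**Figure D2:**
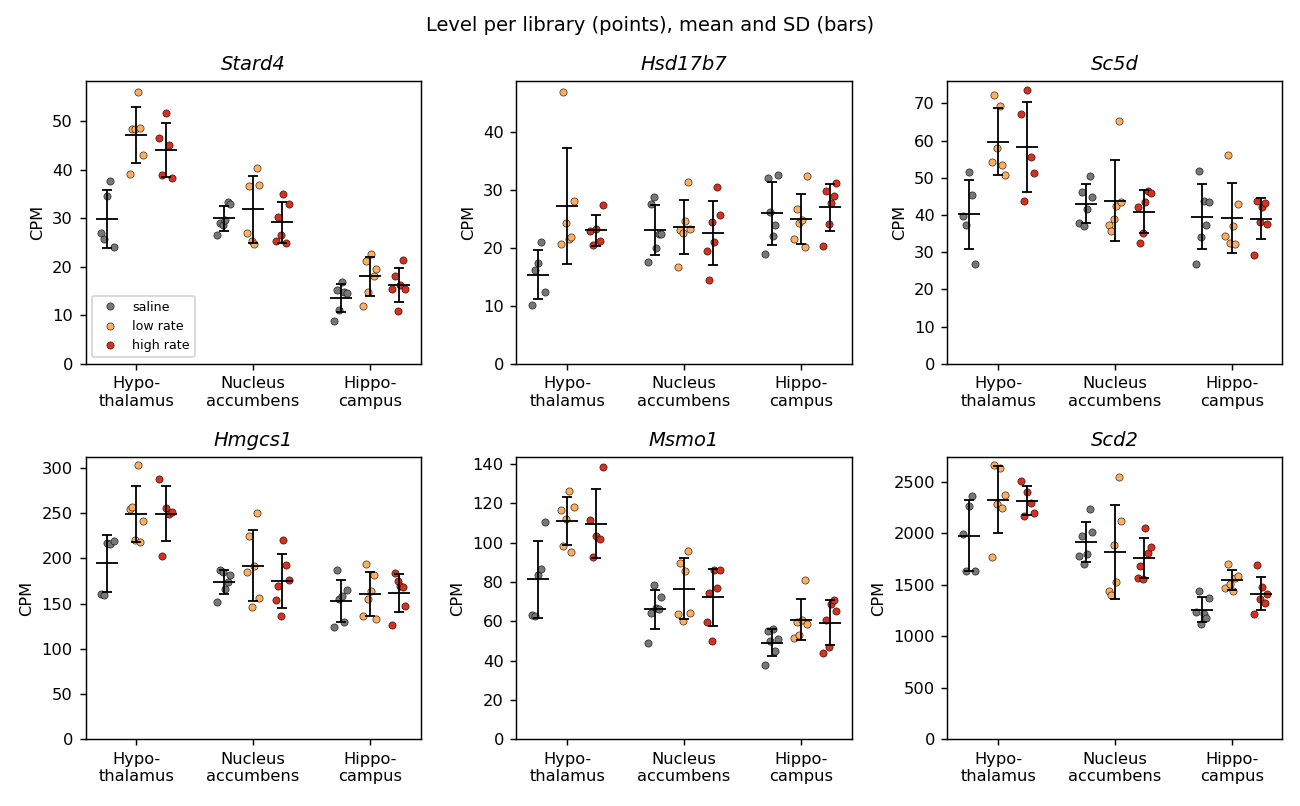
Level in CPM of 6 members in every library (points), with group means and SD (bars), for saline, the low and the high rate in each region. In the hypothalamus the low-rate points of Stard4, 39.0 to 55.9 CPM, all lie above the saline points, 24.0 to 37.7 CPM, and in the nucleus accumbens the infusions overlap.

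Other members had similar shifts that did not pass the threshold. By role, the genes higher with a p under 0.05 before adjustment, beside 14.4% of all genes, were 1 of 7 at the mevalonate steps, 1 of 3 at the squalene steps, 4 of 8 after lanosterol and both sterol carriers. Among fatty acid genes they were 1 of 3 in acetyl-CoA and NADPH supply, 1 of 3 in malonyl-CoA and fatty acid synthesis, 3 of 5 elongases, 1 of 4 desaturases and Gpam. Elovl7, an elongase, had a log2 change of 0.67 (edgeR adjusted p = 0.0579) and Msmo1 of 0.47 (edgeR adjusted p = 0.0666). Msmo1 had 95.4, 114 and 126 CPM as its lowest, median and highest value at the low rate, against 63.2, 63.0, 83.7, 86.6 and 110 CPM under saline, where replicate 5 overlapped the low-rate values. Hmgcs1 had 218, 247 and 303 CPM at the low rate, against 160, 160, 216.5, 216.2 and 219 CPM under saline. Its groups overlapped in 1 low-rate library, and its log2 change was 0.37 (edgeR adjusted p = 0.0719).

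Scd1 (0.44), Acaca (0.42), Elovl5 (0.38) and Lss, lanosterol synthase (0.37), had log2 changes with edgeR adjusted p between 0.0713 and 0.0928. Gpam, which starts glycerolipid synthesis, had 0.53 (edgeR adjusted p = 0.146), which was 0.31 without saline replicate 5 and 0.09 without the GC-leaning libraries. Scd2 had 1774, 2323 and 2665 CPM as its lowest, median and highest value at the low rate, against 1991, 1634, 2264, 2362 and 1630 CPM under saline. Those groups overlapped widely, with a log2 change of 0.25 (edgeR adjusted p = 0.186). Acly (-0.001), Me1 (0.02), Fdps (-0.02) and Fads1 (0.10) had log2 changes near 0.

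Pmvk and Acacb had the lowest unadjusted p among members below saline. Pmvk had 21.3, 30.9 and 49.5 CPM at the low rate, against 34.3, 59.3, 25.1, 28.0 and 114 CPM under saline. Its log2 change was -0.73 (SE 0.33, edgeR adjusted p = 0.147), with 2 saline libraries far above the others. It was -0.23 without saline replicate 5, and without the GC-leaning libraries it had the other sign, 0.25. Acacb had 12.5, 16.0 and 20.6 CPM at the low rate, against 23.6, 26.5, 21.2, 15.1 and 21.5 CPM under saline, overlapping in 1 saline library, and a log2 change of -0.38 (edgeR adjusted p = 0.119).

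The signed log2 change of a member ran against the GC content of its transcript, with higher values at lower GC content. Across the 36 genes the Spearman correlation between log2 change and GC content was -0.84, beside -0.62 over 14088 genes. The points share the same libraries, so this is a description. GC content ranged from 41.9% in Idi1 to 59% in Mvd, with Sc5d at 42.9%, Stard4 and Hsd17b7 at 43.9% and Pmvk at 57%. Without the GC-leaning libraries the correlation was -0.17, and 32 of 36 genes lay above 0 with a median of 0.19, beside 52.8% of all genes and a median of 0.02. In that fit Stard4 had a log2 change of 0.40, Hsd17b7 of 0.54 and Sc5d of 0.30, and 0 of 36 genes were called in edgeR, with 2 saline libraries left. With the GC lean of each library as a covariate, 30 of 36 lay above 0 with a median of 0.22, and 0 were called.

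**Figure D3:**
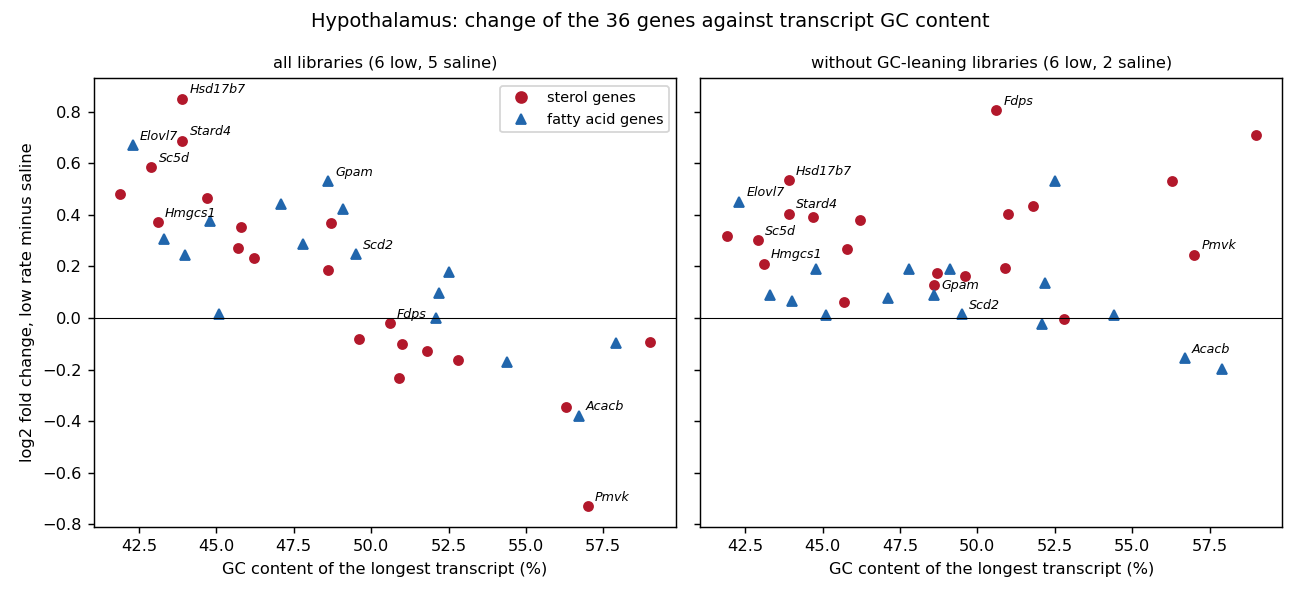
Log2 change at the low rate minus saline in the hypothalamus against transcript GC content (percent) for the 36 genes, with all libraries and without the GC-leaning ones. The slope seen with all libraries (Spearman -0.84) is nearly flat without them (-0.17), where 32 of 36 genes lie above 0.

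The count of called genes also moved with the tool and the batch. DESeq2 called 9 of the 36, adding Elovl7, Msmo1, Scd1, Hmgcs1, Acaca and Lss to the 3 above, where it called 12.2% of all genes, and limma-voom called 5, where it called 7.66%. With the range or the run of library tag numbers as a batch term, 0 were called. The same was true with only the 2 groups compared and without the libraries that lacked a peptide. In the fit without the peptide-lacking libraries, 22 of 36 genes lay above 0 with a median of 0.16, beside 47.2% of all genes and a median of -0.04. There 10 of the 36 had an unadjusted p under 0.05 in edgeR, in either direction, where 29% of all genes did. Within the highest range of tag numbers, which holds 3 low-rate and 3 saline libraries, 29 of 36 genes lay above 0 with a median log2 difference of 0.19, and Stard4 stood at 0.63, Hsd17b7 at 0.50 and Sc5d at 0.52. Within the lowest range, with 1 low-rate and 2 saline libraries, 28 lay above 0 with a median of 0.19. The share of all genes above 0 was not computed within the ranges. The highest range still holds GC-leaning saline replicate 5 and peptide-lacking low replicate 6. In the lowest range both saline libraries lean to GC-rich transcripts, and the low-rate library lacks a peptide. The middle range holds no saline library of the hypothalamus.

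At the high rate 0 of the 36 genes were called in the hypothalamus, where 0.184% of all genes were called. Without adjustment, 11 members had a p under 0.05 and were higher and 2 were lower, where 11.1% of all genes were higher and 13% lower in this way. DESeq2 called 1 member, Stard4, where it called 2.7% of all genes, and limma-voom called 0, where it called 0.375%. The median log2 change was 0.17, beside -0.03 over all genes, and 25 of 36 lay above 0, beside 47.5% of all genes. When the GC-leaning libraries were left out, 3 members had a p under 0.05, where 3.38% of all genes did. In that fit 31 of 36 lay above 0 with a median of 0.20, beside 52.2% of all genes and a median of 0.01, and 0 were called. The Spearman correlation of log2 change with GC content over the 36 genes was -0.78 with all libraries and 0.05 without the leaning ones. The low and high rates share the same saline libraries, so their changes are not independent.

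The 3 members with the smallest p were Stard4, Sc5d and Sqle. Stard4 had 46.6, 38.9, 51.7, 45.1 and 38.2 CPM at the high rate, against 26.9, 25.7, 34.5, 37.7 and 24.0 CPM under saline. All 5 high-rate libraries lay above all 5 saline libraries, as did 1.78% of all genes, and the log2 change was 0.58 (SE 0.14, edgeR adjusted p = 0.0835). Sc5d had 67.2, 43.8, 73.7, 55.7 and 51.2 CPM at the high rate, against 39.7, 37.3, 51.6, 45.4 and 26.9 CPM under saline. Its groups overlapped, and the log2 change was 0.55 (SE 0.17, edgeR adjusted p = 0.133). Sqle had 77.9, 70.3, 68.5, 66.6 and 67.8 CPM at the high rate, against 57.3, 57.7, 62.5, 57.9 and 55.8 CPM under saline. Its groups did not overlap, and the log2 change was 0.28 (SE 0.09, edgeR adjusted p = 0.143). The log2 changes without the GC-leaning libraries were 0.30 for Stard4, 0.26 for Sc5d and 0.22 for Sqle.

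Without saline replicate 4, 8 of the 36 were called at the high rate, where 13% of all genes were, and 12 at the low rate, where 22.1% were. That library had the highest saline values of Stard4, Hsd17b7, Scd1, Acaca and Lss. It also had the lowest total count of all libraries, 2453412. Neither it (lean -0.154) nor saline replicate 3 (-0.227) leaned to GC-rich transcripts, unlike the other saline libraries. A fit without either thus holds a larger share of GC-leaning saline libraries. The part of these properties in the calls was not tested. Without saline replicate 3, 2 were called at the high rate, where 4.29% of all genes were. Hsd17b7 had a log2 change of 0.60 at the high rate (edgeR adjusted p = 0.152) and Hmgcs1 of 0.36 (edgeR adjusted p = 0.144). Between the high and the low rate 0 members were called, where 0% of all genes were called, and the smallest p was that of Dhcr7, the last reductase of cholesterol synthesis, at a log2 difference of 0.26 (edgeR adjusted p = 1). Dhcr7 was the 1 member that passed 0.05 without adjustment, as did 0.566% of all genes that were higher, and 0 members were called by DESeq2 or limma-voom.

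**Figure D4:**
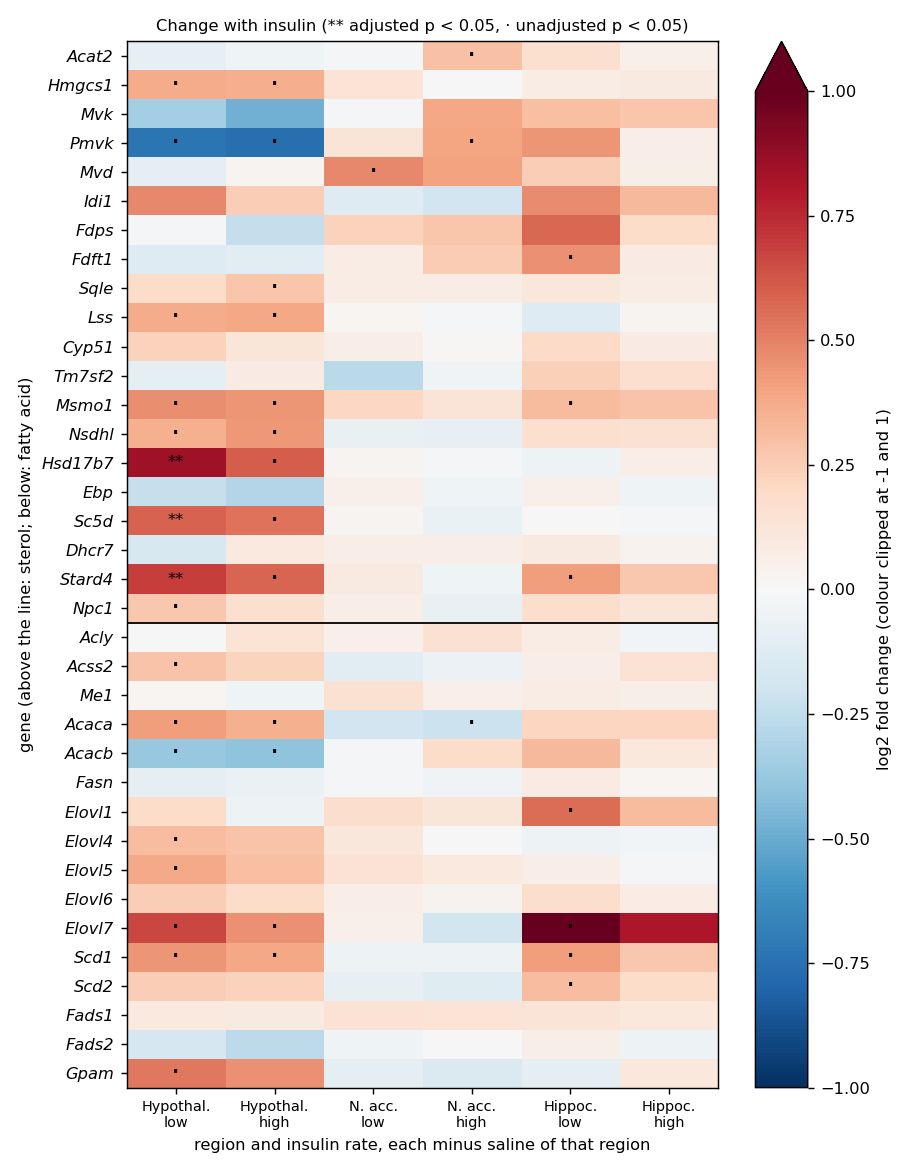
Log2 change with insulin of each of the 36 genes (rows, sterol genes above the line) at the low and the high rate, each minus saline of the same region (columns), in colour clipped at -1 and 1. Marks for an adjusted p under 0.05 appear at the low rate in the hypothalamus for Stard4, Hsd17b7 and Sc5d and in no other column.

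Over the list as a whole, the saline libraries of the hypothalamus lay below the libraries of both insulin rates, which overlapped each other. The median deviation of the 36 genes from their regional mean, on the log2 scale, was -0.173 to -0.078 in the 5 saline libraries, -0.026 to 0.108 in the 6 low-rate libraries and -0.029 to 0.101 in the 5 high-rate libraries. Both insulin groups lay above saline with no overlap, including saline replicates 3 and 4, which did not lean to GC-rich transcripts (-0.160 and -0.078). Taken by route, the groups overlapped. The sterol genes ran from -0.22 to 0.047 under saline, -0.05 to 0.073 at the low rate and -0.016 to 0.156 at the high rate. The fatty acid genes ran from -0.338 to 0.039, -0.01 to 0.298 and -0.029 to 0.118 in the same order. No such separation was computed for other gene lists or for all genes. In the nucleus accumbens the median deviation of the 36 genes ran from -0.142 to 0.047 under saline, -0.160 to 0.165 at the low rate and -0.121 to 0.149 at the high rate. The groups overlapped. In the hippocampus this median ran from -0.166 to 0.032, -0.048 to 0.213 and -0.041 to 0.12 in the same order, and the groups overlapped.

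Summed markers of astrocytes, oligodendrocytes and neurons had higher medians at the low rate than under saline in the hypothalamus. The summed level of 10 astrocyte markers was 4140 to 5060 CPM under saline, 4810 to 5820 CPM at the low rate and 4880 to 5510 CPM at the high rate. Of them, Slc1a2 (log2 change 0.76) and Aqp4 (0.83) were called at the low rate and 0 at the high rate. The summed level of 12 oligodendrocyte markers was 4610 to 8570 CPM under saline, 5550 to 12100 CPM at the low rate and 4660 to 8540 CPM at the high rate. Ugt8a (0.85) and Gjc3 (0.60) were called at the low rate, where 5.38% of all genes were called. The called markers had transcript GC fractions of 0.380 to 0.453. The oligodendrocyte list spans 0.380 to 0.576 and the astrocyte list 0.414 to 0.555. Over all genes the low-rate change ran against GC content (Spearman -0.62), and marker values without the GC-leaning libraries are not given. The summed level of 10 neuron markers was 5480 to 6640 CPM under saline, 6420 to 7810 CPM at the low rate and 5910 to 7450 CPM at the high rate, and 0 of them were called. No marker of these lists was at 0. Their part in the changes of the lipid genes was not tested.

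**Figure D5:**
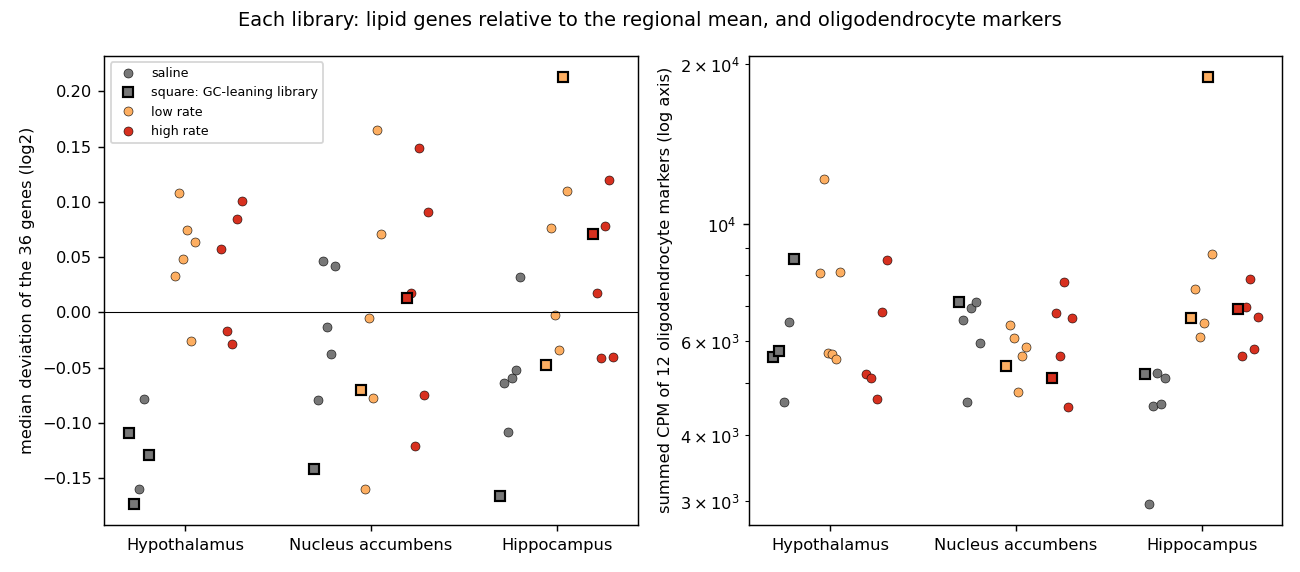
Each library's median log2 deviation of the 36 genes from the mean of its region, and its summed oligodendrocyte marker level in CPM, by region and infusion, with GC-leaning libraries as squares. In the hypothalamus the saline libraries, -0.173 to -0.078, lie below all insulin libraries, and in the hippocampus the saline marker sums, 2960 to 5230 CPM, lie below all insulin libraries.

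In the hippocampus 0 of the 36 genes were called at either rate, where 0% of all 13515 genes were called. Without adjustment, 7 members passed 0.05 as higher and 0 as lower at the low rate, where 4.4% and 1.64% of all genes did. At the high rate 0 members passed in either direction, where 1.95% of all genes did as higher and 0.659% as lower. DESeq2 and limma-voom called 0 members at both rates. The median log2 change was 0.17 at the low rate and 0.09 at the high rate, beside -0.01 and 0.00 over all genes, and 31 and 30 of the 36 genes lay above 0, beside 47.6% and 50% of all genes. The low-rate median was 0.09 without low replicate 5, and without the GC-leaning libraries, of which low replicate 5 is one, it was also 0.09 with 28 genes above 0.

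Scd2 had 1438, 1540 and 1706 CPM as its lowest, median and highest value at the low rate, against 1117, 1226 and 1436 CPM under saline. All 6 low-rate libraries lay above all 6 saline libraries, as did 0.281% of all genes, and the log2 change was 0.31 (SE 0.10, edgeR adjusted p = 0.533). Elovl1, an elongase of very long fatty acids, had 17.4, 21.7 and 40.2 CPM at the low rate, against 12.8, 15.7 and 21.7 CPM under saline, with a log2 change of 0.56 (edgeR adjusted p = 0.593) that was 0.36 without low replicate 5. Elovl7 had 14.8, 36.7 and 73.5 CPM at the low rate, against 12.7, 15.8 and 29.5 CPM under saline, with a log2 change of 1.03 (edgeR adjusted p = 0.673). The groups of both elongases overlapped. At the high rate the smallest p were those of Elovl7 (log2 change 0.81), Msmo1 (0.29) and Scd2 (0.18), each with an edgeR adjusted p of 1. The log2 change of Elovl7 was 0.33 without high replicate 5.

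Oligodendrocyte markers ran with the same groups. Their summed level was 2960 to 5230 CPM under saline, 6120 to 18900 CPM at the low rate and 5620 to 7870 CPM at the high rate, so that neither insulin group overlapped saline. All 12 markers lay above 0 at both rates, with median log2 changes of 0.92 and 0.53 at the low and the high rate, and 0 of them were called. Low replicate 5, at 18900 CPM, also had the highest low-rate values of Elovl1, Fdft1 and Pmvk. Choroid plexus markers varied as well, from 67.6 to 1490 CPM under saline, 95.5 to 6280 CPM at the low rate and 62.7 to 2770 CPM at the high rate. No marker of these lists was at 0 in the hippocampus, and their part in the changes was not tested.

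In the nucleus accumbens 0 of the 36 genes were called at either rate, where 0% of all 13769 genes were called. Without adjustment, 1 member passed 0.05 as higher at the low rate, where 0.85% of all genes did. At the high rate 2 passed as higher and 1 as lower, where 1.55% and 0.813% of all genes did. DESeq2 and limma-voom called 0. The median log2 change was 0.05 at the low rate and 0.005 at the high rate. The smallest p at the low rate were those of Mvd (log2 change 0.48), Acaca (-0.19) and Tm7sf2, a sterol reductase (-0.27), each with an edgeR adjusted p of 1. Mvd had 10.2, 12.2 and 13.0 CPM at the low rate, against 5.37, 8.64 and 10.5 CPM under saline, and the groups overlapped. At the high rate they were those of Acat2 (0.30), Pmvk (0.39) and Acaca (-0.21). Stard4 averaged 30.0 ± 2.63 CPM under saline, 31.8 ± 6.93 CPM at the low rate and 29.1 ± 4.23 CPM at the high rate (SD, n = 6 each).

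A change called in the hypothalamus and not elsewhere was not shown to differ between regions. The interaction of region and infusion gave 0 called members in each of 6 tests, where 0% of all 14985 genes were called, and DESeq2 and limma-voom also gave 0. At the low rate, hypothalamus against hippocampus, 4 members passed 0.05 without adjustment as higher and 3 as lower, where 10.3% and 14% of all genes did. They were led by Hsd17b7 (difference of log2 changes 0.88, SE 0.26, edgeR adjusted p = 0.112) and Pmvk (-1.19, SE 0.41, edgeR adjusted p = 0.125). Against the nucleus accumbens 7 passed as higher and 1 as lower, where 6.86% and 7.2% of all genes did, led by Acaca (0.59, SE 0.19, edgeR adjusted p = 0.218) and Hsd17b7 (0.79, SE 0.26, edgeR adjusted p = 0.223). For the nucleus accumbens against the hippocampus 0 passed as higher and 4 as lower, where 1.72% and 3.55% of all genes did, led by Elovl7 (-0.97) and Scd2 (-0.38).

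At the high rate the hypothalamus against the hippocampus gave 1 member as higher and 0 as lower, where 2.52% and 6.98% of all genes passed. It was Sc5d (0.54, edgeR adjusted p = 0.509), followed by Pmvk (-0.83), which did not pass. Against the nucleus accumbens it gave 7 as higher and 2 as lower, where 7.67% and 11.2% of all genes passed, led by Acaca (0.55) and Stard4 (0.60), both with an edgeR adjusted p of 0.228. The nucleus accumbens against the hippocampus gave 0 as higher and 2 as lower, Elovl7 (-0.99) and Acaca (-0.42), where 0.587% and 1.8% of all genes passed. In the hippocampus 0 members were called between the high and the low rate, and 0 passed 0.05 without adjustment, where 1.29% of all genes did as higher and 1.55% as lower. In the nucleus accumbens 0 were called and 1 passed without adjustment, Acat2 (log2 difference 0.31), where 1.17% of all genes did as higher. DESeq2 and limma-voom called 0 in both.

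Of 61 other genes of sterol and fatty acid handling, 58 were tested in the hypothalamus. At the low rate 3 were called higher and 3 lower, where 3.59% and 1.78% of all genes were, with a median log2 change of -0.003. Insig1, a sterol sensor that retains SREBP and whose own gene SREBP drives, had 91, 107 and 132 CPM as its lowest, median and highest value, against 58.6, 66.6 and 72.6 CPM under saline. The groups did not overlap, with a log2 change of 0.70 (edgeR adjusted p = 0.00648). Insig1 was called in every fit that left out 1 library, and its log2 change was 0.67 without the GC-leaning libraries, where it was not called (edgeR adjusted p = 0.338), and 0.49 without those lacking a peptide (edgeR adjusted p = 0.114). Vldlr, a lipoprotein receptor, rose by a log2 change of 0.49 (edgeR adjusted p = 0.0262), and Scap, which escorts SREBP out of the endoplasmic reticulum, changed by -0.42 (edgeR adjusted p = 0.028). Cpt1c, a neuronal member of the carnitine palmitoyltransferase family, changed by -0.49 (edgeR adjusted p = 0.0391). Of the fits that left out 1 library, Vldlr was called in 5 of 11, Scap in 6 of 11 and Cpt1c in 4 of 11, and none of the 3 was called without the GC-leaning libraries, where the log2 changes were 0.28, -0.25 and -0.14. The further 2 were Abca1, a cholesterol exporter (0.72), and Cpt2 (-0.58).

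Insig1 was the one gene of that list called at the high rate in the hypothalamus, with a log2 change of 0.71 (edgeR adjusted p = 0.0158) and 91.5 to 115 CPM, against 58.6 to 72.6 CPM under saline. It lost the call in 5 of 10 fits that left out 1 library, those without saline replicate 1 or 2 or high replicate 1, 4 or 5, with log2 changes of 0.65 to 0.76 over the 10 fits. In the hippocampus Insig1 averaged 39.0 ± 4.27 CPM under saline, 58.6 ± 9.63 CPM at the low rate and 55.3 ± 8.98 CPM at the high rate (SD, n = 6 each). Its log2 changes there were 0.60 and 0.52, with edgeR adjusted p of 0.183 and 1, and 5 of 6 libraries of each insulin group lay above every saline library. At the low rate DESeq2 called it (adjusted p = 0.0131). In the nucleus accumbens its log2 changes were 0.12 and 0.14.

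The members varied unevenly between libraries of the same group. Sqle in the hypothalamus had the smallest SD of log2 level within groups, 0.09, with Fads1 at 0.11 and Me1 at 0.11. Mvk, mevalonate kinase, at 0.57, Pmvk at 0.60 and Fdps at 0.60 had the largest there. In the hippocampus Elovl7 had the largest SD, 0.74. Over the 52 libraries Fdps had 1140 counts and Pmvk 7106, while Idi1, with 820 counts, had a hypothalamic SD of 0.42. The part of low counts in this scatter was not tested.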

How the data were processed

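RNA of 3 brain regions was sequenced as 52 libraries prepared, per the labels' protocols, with a directional kit. The authors deposited 1 table of read counts per Ensembl gene without normalizing them. The aligner STAR, the read counter featureCounts and the build GRCm38.p4 come from the submitters' processing notes. Tool versions and the strand setting were not stated in the sources. Counting per gene merges isoforms. Reads shared by near-identical genes, or by genes overlapping on the same or on opposite strands, can be split, lost or misplaced. PCR copies may be counted more than once.

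Symbols and exon lengths came from GENCODE M21, which named 45143 of 46071 identifiers, and promoter windows from RefSeq. CPM used TMM-scaled library sizes over all 52 libraries, and levels between genes were divided by exon length in kb.

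Insulin was tested within each region by a robust quasi-likelihood fit of its 3 groups in edgeR 4.0.16 (R 4.3.3) with filterByExpr. Regions under saline and interactions were tested in 1 fit of all 52 libraries, which takes libraries as independent. Tests were 2-sided, and p-values were adjusted by Benjamini-Hochberg over all tested genes and called under 0.05. The steps were run on simulated counts that had less scatter than the fitted trend and no GC lean or batch. That run does not measure power or false calls in these libraries. Differences within tag ranges used log2(CPM + 0.5).

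The 36 genes, the other gene lists and the tests were chosen with earlier results of these data known. Every called gene is named, or the 3 with the smallest p where none was called (2 for interactions), and the 4 largest with a mean of at least 5 CPM between regions. Of the 61 other genes up to 4 called ones by smallest p are named, and Insig1. Abca1 and Cpt2, and members named beyond these, were picked with their values in view.

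The alternatives tried were size factors of DESeq2, no filter, DESeq2 1.42.0, limma-voom (limma 3.58.1), tag range or run as a batch term, only the groups compared, all 52 libraries, GC lean as a covariate, fits without GC-leaning or peptide-lacking libraries, and leaving out each library. Region fits without GC-leaning libraries and the mean of the 3 infusions were chosen after seeing the data.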

Additional observations from a re-analysis of the deposited data

Results flagged for a closer look

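In 101 groups of the named members, the most extreme library was compared with the others of its group by Dixon's ratio, and 9 groups had a library outside the 95% limit. Chance gives about 1 in 20 groups if values are normally spread and groups are independent. The ratio was taken on CPM without a log scale, and groups of different genes share libraries, so that rate is only a rough guide. All 9 were the highest library of their group.

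Low replicate 5 of the hippocampus stood apart in Elovl1 (40.18 CPM, next highest 23.5), Fdft1 (89.2 CPM, next highest 50.5) and Pmvk (59.54 CPM, next highest 24.2). The same library had the highest summed oligodendrocyte marker level of the hippocampus, 18900 CPM, and a GC lean of 0.403. High replicate 1 of the hippocampus, which had a GC lean of 0.608, stood apart in Fdft1 (56.72 CPM, next highest 35.1) and Pmvk (37.28 CPM, next highest 19.1). High replicate 5 of the hippocampus had 77.04 CPM of Elovl7, against 32.6 CPM in the next library. The part of these properties in the values was not tested.

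In the hypothalamus, low replicate 2 stood apart in Hsd17b7 (46.92 CPM, next highest 28) and in Npc1, which moves cholesterol out of lysosomes (125.2 CPM, next highest 103.9). That library had at least 1 hypothalamic peptide under 1 CPM and the highest oligodendrocyte marker sum of the region, 12100 CPM. Saline replicate 4 had 115.3 CPM of Acaca, against 75.1 CPM in the next saline library.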

How the results depend on the processing

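At the low rate in the hypothalamus 3 of the 36 genes were called, against 9 by DESeq2, 5 by limma-voom, and 0 each with the tag run or the tag range as batch, with only the groups compared, with GC lean as a covariate, without GC-leaning libraries and without libraries lacking a peptide. Leaving out 1 library gave 0 to 12 genes at the low rate and 0 to 8 at the high rate, where DESeq2 called 1 gene, against 0 in edgeR. Between regions under saline, averaging the 3 infusions called 19 genes for nucleus accumbens minus hippocampus, against 12. It called 22 for nucleus accumbens minus hypothalamus, against 11. In those averaged fits 19 and 23 members had an unadjusted p under 0.05 in edgeR, where 53.4% and 48.6% of all genes did. For nucleus accumbens minus hypothalamus, 4 were called without GC-leaning libraries and 6 to 13 with 1 library left out. The share of all genes called is not given for those fits with 1 library left out. Without GC-leaning libraries the log2 change of Pmvk in the hypothalamus reversed to 0.25 at the low rate and 0.23 at the high rate, and Mvd between nucleus accumbens and hypothalamus to 0.14. Pmvk between the high and the low rate in the hippocampus ranged from -0.64 to 0.043 with 1 library left out, the last without low replicate 5. The remaining counts of called genes stayed within 1.5 times their reported value under every alternative that was run. The causes of these moves were not tested. No paired analysis was possible because the labels give no replicate number that groups share. Runs of consecutive tag numbers were used as a block instead, and 0 of the 36 genes were called with it in any comparison of insulin with saline. Fits without GC-leaning libraries leave 2 saline libraries of the hypothalamus, and Idi1 and Fdps, with the fewest counts among the members described, have the least depth behind their values.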
